A study of Drosophila melanogaster with 23 samples.

Results

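Deletion of the second MADF domain (MADF2) of Mzfp1 was examined by comparing 2 peak lists obtained by chromatin immunoprecipitation and sequencing (ChIP-seq) from adult Drosophila melanogaster with anti-Mzfp1. The list of flies expressing the full-length tagged protein (wt-HA) held 1684 regions on the chromosome arms, and the list of flies expressing the protein without MADF2 (ΔM2-HA) held 1611. These are 3295 of the 14617 regions in the 8 peak lists of the series that were read. A wt-HA region was called kept when a ΔM2-HA region shared at least 1 bp with it and lost when none did, and a ΔM2-HA region was called new when no wt-HA region overlapped it. "Lost" therefore describes absence from a thresholded list and not a measured absence of protein. Each list had been made from 2 ChIP libraries, so there was 1 list per group and no spread between replicates for any share given here.

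Both groups were flies of 2 to 3 days of age with the genotype CG1603attP/CyO; U:Mzfp1*/TM6,Tb, where CG1603attP is a deletion of the gene that encodes Mzfp1 and U:Mzfp1* is a transgene driven by a ubiquitin promoter and inserted at 1 genomic site. The tagged protein carried HA at the C terminus. One endogenous copy of CG1603 remained on the balancer chromosome in both groups, and the rat antibody was raised against an N-terminal part of Mzfp1 that the deletion leaves in place, so anti-Mzfp1 could precipitate endogenous and tagged protein alike. The 2 groups thus differed in MADF2 and in the amount of tagged protein, and the effects of these cannot be told apart. In the immunoblots of the study the ΔM2-HA protein was more abundant than the wt-HA protein, and the wt-HA protein was more abundant than Mzfp1 in the untagged strain y1w1118. The reproducibility of both lists was classed as moderate by the study. Whole flies were used, so changes in a few cell types and small changes in all of them cannot be told apart.

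Mzfp1 is a zinc finger protein of housekeeping promoters that binds the insulator cofactor CP190. MADF domains are found in many Drosophila transcription factors, where they contact DNA or partner proteins. In Mzfp1 a cluster of C2H2 zinc fingers lies next to them and, per the study, binds the DNA motif. Pericentromeric heterochromatin is the repeat-rich, HP1-covered DNA around centromeres, which nevertheless holds active genes, and the small chromosome 4 carries HP1 over much of its length. The comparison asked where on the genome the Mzfp1 lists differed when MADF2 was absent.

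Sequences of kept, lost and new regions are given for orientation (dm6, RefSeq assembly Release 6 plus ISO1 MT), each with 15 bases in capitals where a window of 201 bases around the summit matched a 15-bp weight matrix derived from euchromatic regions of y1w1118 on the left and right arms of chromosome 2. The matrix is centred on ATCGAT, an element common in housekeeping promoters and read by several proteins, so a match is a description and not a Mzfp1 site. The first 4 are kept regions with a match, at the start of the Polycomb gene Pc, at Phf7, at the ribosomal protein gene RpL5 in heterochromatin and at vtd, which encodes a cohesin subunit.
Pc, kept, 3L:21318017-21318045, plus strand: catgtaaACAATCGATAGTGCTgcgaggt
Phf7, kept, X:20165900-20165974, plus strand: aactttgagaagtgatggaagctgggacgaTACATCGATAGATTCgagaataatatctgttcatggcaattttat
RpL5, kept, 2L:22536795-22536823, plus strand: attatttATTTTCGATATTAAGttgataa
vtd, kept, 3L:27136514-27136542, minus strand: ttatcaaATTATCGATATCATTtaaaatg
The next 3 are the only lost heterochromatic regions with a match, which lay 4518 bp from Slmap, in an intron of CG12061 and in an intron of Snap25, the last apart from the promoter region of Snap25 that is given with the heterochromatic genes.
Slmap, lost, 2L:22574483-22574557, plus strand: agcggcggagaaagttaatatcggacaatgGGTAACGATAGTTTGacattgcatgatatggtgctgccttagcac
CG12061, lost, X:23037719-23037793, minus strand: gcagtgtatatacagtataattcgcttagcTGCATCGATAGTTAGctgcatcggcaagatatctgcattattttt
Snap25, lost, 3L:24231527-24231601, plus strand: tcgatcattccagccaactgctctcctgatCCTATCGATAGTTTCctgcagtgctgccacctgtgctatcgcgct
The last 4 are a lost euchromatic promoter (Orc5, a subunit of the origin recognition complex), the strongest lost region of chromosome 4 (Rnf11, without a match, shown around its summit), a lost chromosome 4 promoter with a match (Arf4) and a new region (CG17292).
Orc5, lost, 2L:13829758-13829786, plus strand: atttcgtTATATCGATATTTTTcgattgt
Rnf11, lost, 4:314825-314899, plus strand: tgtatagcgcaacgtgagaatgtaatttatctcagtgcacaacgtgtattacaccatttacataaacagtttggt
Arf4, lost, 4:1124003-1124077, minus strand: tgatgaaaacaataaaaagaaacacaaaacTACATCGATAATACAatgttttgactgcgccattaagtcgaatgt
CG17292, new, 2L:8370406-8370434, minus strand: tttggcgCCTATCGATATCAGTctagctt

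Of the 1684 wt-HA regions, 1268 were kept and 416 were lost (24.7%, Wilson 95% interval 22.7 to 26.8). Of the 1611 ΔM2-HA regions, 1283 were shared and 328 were new (20.4%, 18.5 to 22.4). All intervals cover counting error only. Peak lists carry no read totals, so the depth behind each value is unknown. Median fold enrichment of ChIP over control, a ratio given by the peak caller, was 3.36 in wt-HA and 3.03 in ΔM2-HA, and median width was 551.5 and 553 bp. By these measures the whole lists were of similar length and of similar median strength and width.

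Pericentromeric heterochromatin, taken between the borders that the study used on the 5 large arms, was compared with the rest of these arms. In it, 43 of 110 wt-HA regions were lost (39.1%, 30.5 to 48.4), against 356 of 1526 in euchromatin (23.3%, 21.3 to 25.5) and 24.7% over all regions. Heterochromatic regions had a median fold enrichment of 15.1, against 3.25 in euchromatin, and over these arms the odds of loss were 0.302 times as high for each doubling of fold enrichment (0.238 to 0.384, p = 1.32e-22, n = 1636). In a logistic regression over these arms with fold enrichment, width and promoter overlap as covariates, heterochromatic regions had 20.0 times the odds of being lost (95% interval 9.94 to 40.4, two-sided Wald test, p = 5.28e-17, n = 1636 regions). Without covariates the odds ratio was 2.11 (1.41 to 3.15, p = 0.00026, n = 1636). These p-values are across regions, which are not replicates of the genotype. The lost share depended on whether a region was also found in the untagged strain. Among wt-HA regions that overlapped a y1w1118 region, 12 of 77 heterochromatic regions (15.6%) and 171 of 1232 euchromatic regions (13.9%) were lost, and with the covariates the odds ratio was 29.7 (10.7 to 82.8, p = 8.68e-11, n = 1309).

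The wt-HA list was divided by fold enrichment into 4 equal strength groups of 421 regions, from group 1 (highest) to group 4 (lowest). In group 1, 13 of 77 heterochromatic and 28 of 310 euchromatic regions were lost (16.9 and 9.03%). In groups 2 to 4 together, 30 of 33 heterochromatic regions were lost (90.9%, 76.4 to 96.9), against 328 of 1216 in euchromatin (27.0%, 24.6 to 29.5). The 3 heterochromatic regions kept in these groups were all in group 2, and none of the 6 in group 3 or the 12 in group 4 was kept. In euchromatin the lost share went from 9.03% in group 1 through 11.2 and 22.7% to 46.9% in group 4. Within group 1 alone, a subset chosen after the data had been seen, the odds ratio of heterochromatin was 4.80 (1.91 to 12.1, p = 0.00088, n = 387).

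**Figure D1:**
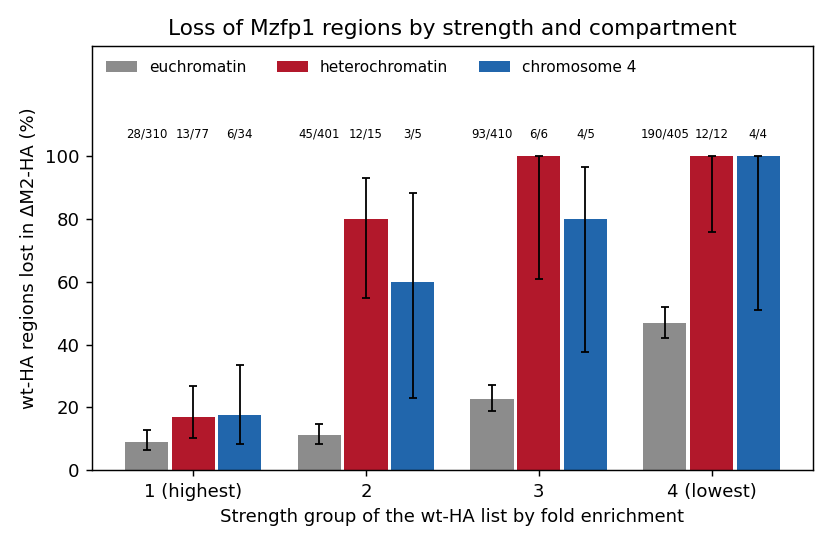
Share of wt-HA regions without an overlapping ΔM2-HA region (%, vertical axis) by strength group of the wt-HA list in fold enrichment (horizontal axis), for euchromatin, heterochromatin and chromosome 4. Bars are shares, whiskers are Wilson 95% intervals and the fractions over the bars are lost of all regions, and in heterochromatin 30 of the 33 regions in groups 2 to 4 were lost.

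By the 1 bp rule, promoters in heterochromatin were mostly kept and other heterochromatic regions mostly lost. Of the 80 heterochromatic regions that overlapped a window of 200 bp either side of a transcription start, 16 were lost (20.0%, 12.7 to 30.05), close to the 302 of 1349 at euchromatic promoters (22.4%, 20.2 to 24.7). Of the 30 that overlapped none, 27 were lost (90.0%, 74.4 to 96.5), against 54 of 177 in euchromatin (30.5%, 24.2 to 37.6). The heterochromatic promoter regions were mostly strong and the others mostly weak. In strength group 1, 9 of 71 promoter regions and 4 of 6 others were lost. In groups 2 to 4, 7 of 9 promoter regions and 23 of 24 others were lost, so weak heterochromatic promoters were mostly lost as well. With 50% reciprocal overlap, which a narrowed region can fail, 51 of the 80 promoter regions (63.75%) and 29 of the 30 others counted as lost, so that most heterochromatic promoters were then lost as well. The test of this difference, a term for heterochromatin by promoter in the same fit, missed the threshold (odds ratio 0.18, 0.031 to 1.08, p = 0.061, n = 1636). Fitted separately, the odds ratio of heterochromatin was 16.7 at promoters and 37.3 outside them. Over the 5 large arms, in the fit with covariates and without that term, the odds of loss outside promoters were 1.33 times those at promoters (0.94 to 1.90, Wald test, p = 0.11, n = 1636). Of the 27 lost heterochromatic regions outside promoters, 16 lay within 5 kb of a kept region (59.3%), and the median distance over all 27 was 2070 bp. The same held for 10 of the 54 lost euchromatic regions outside promoters (18.5%) and 3 of the 16 lost heterochromatic promoters (18.75%). By distance to the euchromatic border, 11 of 35 regions were lost within 500 kb, 21 of 46 between 500 and 1500 kb and 11 of 29 beyond, with overlapping intervals.

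By arm, 11 of 21 heterochromatic regions were lost on 2L, 20 of 51 on 2R, 4 of 23 on 3L, 5 of 11 on 3R and 3 of 4 on X. The 95% intervals of the arms overlapped, so no order among them is read.

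The strongest lost heterochromatic region lay between genes, 4518 bp from Slmap (2L:22574007-22575834). It was 1828 bp wide with a fold enrichment of 35.1 in wt-HA (rank 84), and it was also absent from the anti-Mzfp1 lists of y1w1118 and of Δ42-HA, the tagged protein without its CP190-binding region. Part of what the antibody was raised against is missing from Δ42-HA, and the study found this protein less abundant than wt-HA, so values of Δ42-HA carry that limit. Both anti-HA lists contained it. The second, at the gene model CR40190 (2R:1211114-1211808), had a fold enrichment of 16.9 in wt-HA, 5.83 in y1w1118 and 4.35 in Δ42-HA and was found in both anti-HA lists. The promoter region of CycK, which encodes the cyclin partner of Cdk12, was 2216 bp wide (2L:22129463-22131678) with a fold enrichment of 9.64 in wt-HA, was absent from y1w1118 and stood at 5.15 in Δ42-HA.

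Other lost heterochromatic promoters belonged to CG17493 (fold enrichment 8.26 in wt-HA, 4.08 in y1w1118), CG3651 (8.11, absent from y1w1118), Clamp (6.48, absent), which encodes a zinc finger protein of dosage compensation, and Tif-IA (5.83 and 1.99), a factor for RNA polymerase I. Each of these 4 was listed in Δ42-HA and in both anti-HA lists. The lost regions thus included ones that the untagged strain held and ones that it did not. In all, 12 of the 43 lost and 65 of the 67 kept heterochromatic regions were found in y1w1118.

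The 67 kept heterochromatic regions were narrower in ΔM2-HA. Their median width was 2007 bp in wt-HA and 903 bp in ΔM2-HA, and the median ratio of ΔM2-HA to wt-HA width was 0.507 (quartiles 0.3498 and 0.757). The ratio was below 1 in all 67. The deposited lines give the width in each of 2 inputs to the reproducibility procedure, and 66 of the 67 regions were narrower in ΔM2-HA in both inputs, beside 29.5% of all kept regions and 278 of 1170 in euchromatin (23.8%). In euchromatin the median ratio was 1.005 (0.848 and 1.177), with 278 regions narrower and 292 wider in both inputs. The inputs were probably pseudoreplicates, so this count is not a replicate check. Among regions of 1000 bp or more in wt-HA the median ratio was 0.480 in heterochromatin (n = 61) and 0.893 in euchromatin (n = 192).

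**Figure D2:**
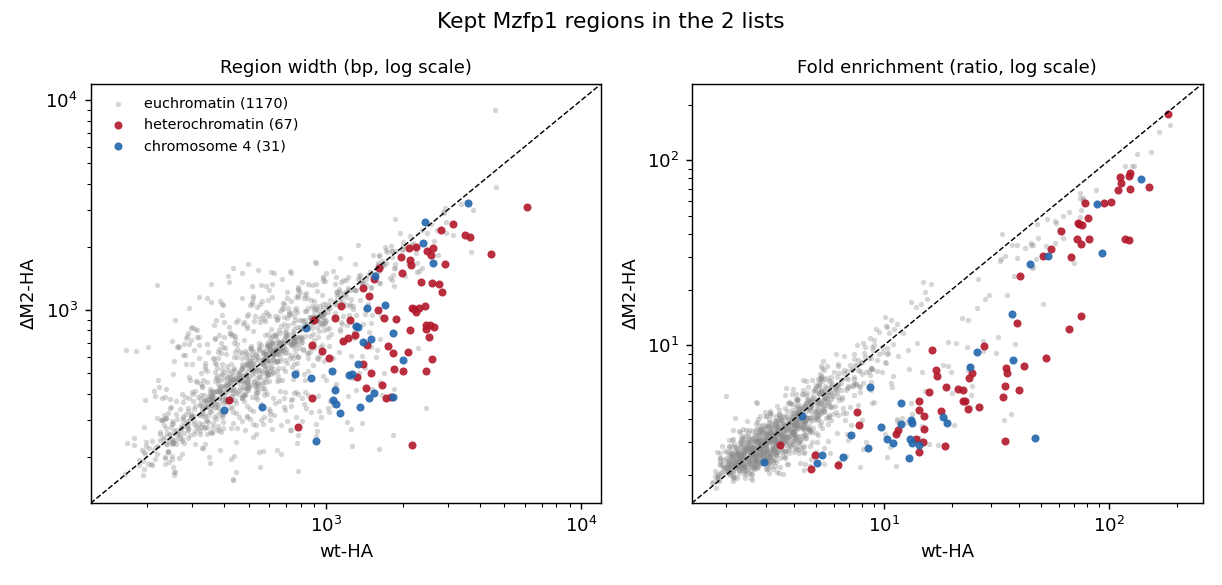
Kept regions in wt-HA (horizontal axes) and ΔM2-HA (vertical axes), by summed width of the overlapping regions in bp on the left and by fold enrichment as a ratio on the right, all on log scales. Each point is a region, coloured by compartment with the number in brackets, and the dashed line marks equal values; all 67 heterochromatic regions lie below the line in both plots, and of the chromosome 4 regions 30 of 31 by width and 31 of 31 by fold enrichment.

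Over the 65 kept heterochromatic regions also listed in y1w1118, the median width ratio to wt-HA was 0.694 for y1w1118 and 0.507 for ΔM2-HA, and the ratio of ΔM2-HA to y1w1118 was 0.834 (quartiles 0.600 and 0.948). The ratio of y1w1118 to wt-HA differed with strength. It was 1.24 at wt-HA ranks 1 to 10 (n = 3), 0.976 at ranks 11 to 50 (n = 21) and 0.487 from rank 51 to the end of strength group 1 (n = 39), while that of ΔM2-HA to y1w1118 was 0.794, 0.785 and 0.854. At RNASEK the width was 1545 bp in y1w1118, 1082 bp in wt-HA and 913 bp in ΔM2-HA. The untagged strain was thus narrower than wt-HA chiefly at the weaker of these regions. For Δ42-HA the ratio to wt-HA was 0.968 over 66 regions. These ratios share the wt-HA widths and are given side by side. By their IDR scores, y1w1118 and Δ42-HA regions probably came from replicates, and wt-HA and ΔM2-HA regions from pseudoreplicates at a stricter limit. Widths and presence are therefore not fully comparable between these 2 pairs of lists, and the effect of this was not tested. Summed over all heterochromatic regions, the lists covered 167.6 kb in wt-HA, 144.6 kb in Δ42-HA, 103.2 kb in y1w1118 and 76.3 kb in ΔM2-HA. In euchromatin the covered length was 1006 kb in both wt-HA and ΔM2-HA. Averaged over each list's own heterochromatic regions, mean fold enrichment was 32.4 in wt-HA (n = 110) and 22.4 in ΔM2-HA (n = 76). In euchromatin it was 6.25 and 5.13. The sets differ, since lost regions enter only the wt-HA mean and new regions only the ΔM2-HA mean.

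The narrowest kept heterochromatic region was at the promoter of Set1, which encodes a histone H3K4 methyltransferase (3L:25106998-25109164). Its width was 2167 bp in wt-HA, 1373 bp in Δ42-HA, 274 bp in y1w1118 and 227 bp in ΔM2-HA, a ratio of 0.105. Its fold enrichment was 18.6 in wt-HA, 11.1 in Δ42-HA, 3.32 in y1w1118 and 2.85 in ΔM2-HA. For Set1, y1w1118 and ΔM2-HA were low and wt-HA and Δ42-HA high.

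At Spf45, a splicing factor gene, the width was 2471 bp in wt-HA and 510 bp in ΔM2-HA (ratio 0.206), with 830 bp in y1w1118. The region of alpha-Cat, the adherens junction gene, went from 1793 to 387 bp (0.216), that of ND-AGGG, a complex I subunit gene, from 1725 to 383 bp (0.222), and that of Nipped-B, the cohesin loader gene, from 1653 to 438 bp (0.265). The region of mRpS5 measured 1850 and 523 bp (0.283) and that of light (lt) 1436 and 425 bp (0.296). All of these were at promoters, and in y1w1118 each was narrower than in wt-HA.

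The least narrowed heterochromatic regions were among the strongest. CkIIalpha, the catalytic subunit gene of casein kinase II, measured 898 bp in wt-HA and 894 bp in ΔM2-HA (ratio 0.996), with a fold enrichment of 51.1 and 30.3. CG17683 measured 1621 and 1595 bp (0.984) with 124.5 and 69.8, and Maf1, a repressor gene of RNA polymerase III, 1143 and 1051 bp (0.920) with 149.8 and 71.9. Over the 67 regions, the Spearman coefficient of wt-HA fold enrichment with the width ratio was 0.493, while over the 1170 kept euchromatic regions it was −0.200. These coefficients are descriptions across regions of the same lists. From wt-HA rank 51 to the end of strength group 1, the median ratio was 0.410 in heterochromatin (n = 40) and 0.970 in euchromatin (n = 259).

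Fold enrichment over the preimmune control depends on the background of each list and was therefore also compared by rank. Kept heterochromatic regions had a median fold enrichment of 34.6 in wt-HA and 7.35 in ΔM2-HA, and their percentile rank within the list had a median change of −5.37 points in ΔM2-HA and was lower in 58 of 67 regions. Their median percentile rank was 94.9 in wt-HA, 95.1 in Δ42-HA, 90.1 in y1w1118 and 89.2 in ΔM2-HA, over the regions each list held. Over the 65 regions in y1w1118, median fold enrichment was 34.8 in wt-HA, 11.6 in y1w1118 and 7.54 in ΔM2-HA. By rank the untagged strain thus lay near ΔM2-HA. Kept euchromatic regions had a median fold enrichment of 3.58 in wt-HA and 3.33 in ΔM2-HA and a median percentile change of +4.79 points, with 366 of 1170 lower. High ranks leave little room to rise, so strength group 1 is also given. There the median change was −4.67 points in heterochromatin (55 of 64 lower) and +1.27 in euchromatin (99 of 282 lower). Within heterochromatin the order of the regions was largely retained, with a Spearman coefficient of 0.924 between the lists (0.825 in euchromatin).

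Genes long known to lie and function in heterochromatin were taken from a list of 26 gene models, of which 21 had a wt-HA region at a promoter and 4 of those were lost (19.05%, 7.67 to 40.0), beside 463 of 2193 over all genes with a wt-HA region at a promoter (21.1%). The lost ones were CycK (9.64), p120ctn (4.70), Snap25 (4.16) and uex (5.95). Among the kept, RpL5 had a fold enrichment of 124.4 in wt-HA, 141.1 in Δ42-HA, 160.3 in y1w1118 and 85.6 in ΔM2-HA. The region of rolled (rl), the MAP kinase gene, had 122.0, 80.4, 77.7 and 37.2 and measured 4418 bp in wt-HA and 1860 bp in ΔM2-HA. The region of Yeti had 39.9, 23.4, 8.30 and 5.76, in the same order of lists. In each of these 3 ΔM2-HA was the lowest, and y1w1118 lay above wt-HA at RpL5 and below it at the others. The width ratios of this list ran from 0.105 (Set1) to 0.920 (Maf1) of the wt-HA width.

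Chromosome 4 held 48 wt-HA regions, of which 17 were lost (35.4%, 23.4 to 49.6). In a fit against the euchromatic regions with the same covariates, added after the data had been seen, its odds ratio of loss was 8.70 (3.91 to 19.3, p = 1.11e-07, n = 1574 regions). Among the 32 of these regions that were also in y1w1118, 1 was lost (3.13%). Of the 17 lost, 11 were in Δ42-HA, 12 in the ΔM2-HA anti-HA list and 1 in y1w1118. The untagged strain thus lacked 16 of the 17 lost regions of chromosome 4.

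The 31 kept regions of chromosome 4 were narrower in 30 cases, in both inputs, with a median width of 1341 bp in wt-HA and 511 bp in ΔM2-HA and a median ratio of 0.486 (quartiles 0.338 and 0.649). The y1w1118 regions there had a median width of 523 bp, 0.445 of wt-HA, and the ratio of ΔM2-HA to y1w1118 was 0.976 (0.799 and 1.08). The listed ΔM2-HA widths on chromosome 4 were thus near those of the untagged strain, while the same ratio in heterochromatin was 0.834. Widths of y1w1118 and Δ42-HA carry the limit that their IDR inputs probably differed from those of wt-HA and ΔM2-HA. For Δ42-HA the ratio to wt-HA was 0.779. The percentile rank had a median change of −22.5 points in ΔM2-HA and was lower in 30 of 31 regions. The untagged strain, which held all 31, had a median percentile rank of 65.1, slightly below the 67.2 of ΔM2-HA. Those of wt-HA and Δ42-HA were 89.9 and 88.8. By fold enrichment, y1w1118 had a median of 4.68, between the 3.80 of ΔM2-HA and the 13.2 of wt-HA.

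The strongest region of chromosome 4, at anne, had a fold enrichment of 138.5 in wt-HA, 153.1 in Δ42-HA, 181.1 in y1w1118 and 79.1 in ΔM2-HA, and measured 3617 bp in wt-HA and 3242 bp in ΔM2-HA. At the promoter of CaMKII, the calcium and calmodulin-dependent kinase gene, it was 46.8 in wt-HA, 9.55 in Δ42-HA, 9.28 in y1w1118 and 3.16 in ΔM2-HA, with widths of 1356 and 347 bp in wt-HA and ΔM2-HA. At Rad23, a nucleotide excision repair gene, it was 12.9 in wt-HA, 10.3 in Δ42-HA, 3.26 in y1w1118 and 2.46 in ΔM2-HA. At pho, which encodes a DNA-binding Polycomb group protein, it was 13.3, 14.2, 2.74 and 2.97. Of these 4, anne alone kept a rank among the highest 12 regions of ΔM2-HA, and at Rad23 and pho, but not at CaMKII, the ΔM2-HA value was within 1 unit of that of y1w1118.

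Eph was the only chromosome 4 region wider in ΔM2-HA (2435 and 2632 bp, ratio 1.08). The strongest lost one, at the promoter of Rnf11 (4:314616-315453), had a fold enrichment of 15.0 in wt-HA, 10.6 in Δ42-HA and 3.81 in y1w1118, and the nearest ΔM2-HA region was 520 bp away. The others with a fold enrichment over 5 in wt-HA were CaMKI (8.95), CG33941 (8.35), Arf4 (7.46), an intron of CaMKII (7.40) and PIP4K (5.63), and y1w1118 listed none of these 5. By strength group, 6 of 34 chromosome 4 regions were lost in group 1, 3 of 5 in group 2, 4 of 5 in group 3 and 4 of 4 in group 4.

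**Figure D3:**
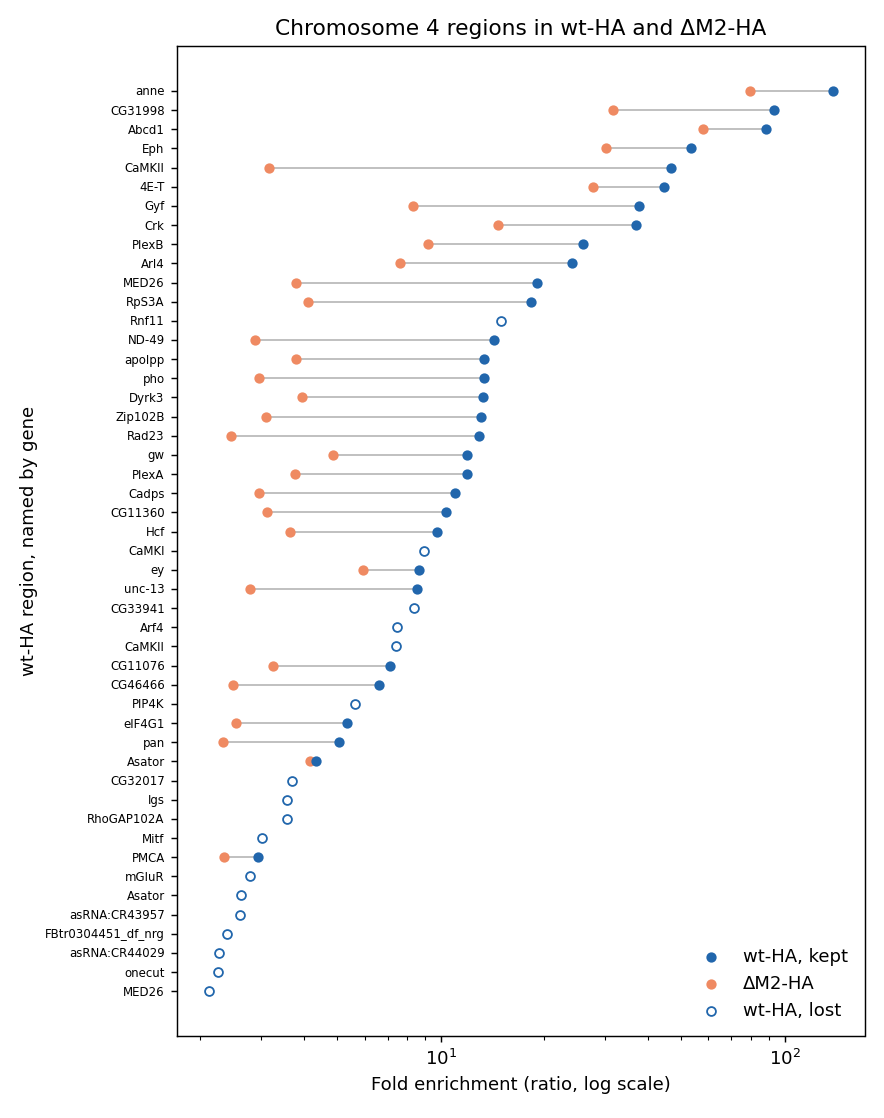
Fold enrichment (ratio, log scale, horizontal axis) of the 48 wt-HA regions of chromosome 4, ordered by their wt-HA value and named by gene. Filled blue points are kept regions in wt-HA, orange points the same regions in ΔM2-HA and open points the 17 lost regions; all 31 orange points lie to the left of the blue ones, with CaMKII going from 46.8 to 3.16.

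The lost regions of euchromatin had a low fold enrichment. Their median fold enrichment was 2.50, against 3.58 in the 1170 kept ones, and their median width was 436 against 562.5 bp. Promoters made up 302 of the 356 lost regions (84.8%) and 1047 of the 1170 kept (89.5%). Regions at promoters of 2 or more genes were lost in 116 of 608 cases (19.1%, 16.2 to 22.4) and those at the promoter of 1 gene in 186 of 741 (25.1%, 22.1 to 28.3).

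The strongest lost euchromatic region was at the promoter of asterless (asl), a centriole duplication gene (3R:5605773-5606864), with a fold enrichment of 28.2 in wt-HA, 8.57 in Δ42-HA and 7.42 in y1w1118. CG2681 followed with 21.4, 12.8 and 3.01, and stw with 16.9 and 7.21 and no y1w1118 region. Pitslre, a cyclin-dependent kinase gene, had 11.1 in wt-HA, 2.42 in Δ42-HA and 1.93 in y1w1118, and Lint-1 had 10.1, 4.80 and 7.97. The ΔM2-HA anti-HA list held asl, stw, Pitslre and Lint-1 but not CG2681, so absence from the anti-Mzfp1 list did not always mean absence from the anti-HA list of the same flies. That anti-HA list was long, with 6215 regions on the arms.

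Regions on the euchromatic X were lost more often than those on the autosomes, in 71 of 232 cases (30.6%, 25.0 to 36.8) against 285 of 1294 (22.02%, 19.9 to 24.4). With the same covariates the odds ratio was 1.83 (1.31 to 2.56, two-sided Wald test across regions, p = 0.00043, n = 1526). In strength group 1, 8 of 51 X regions and 20 of 259 autosomal regions were lost (15.7 and 7.72%). Restricted to regions also in y1w1118, the odds ratio was 1.86 (p = 0.0067, n = 1232). Kept X regions had a median width ratio of 0.952 (n = 161) and autosomal ones of 1.011 (n = 1009). The autosomal arms ranged from 20.1% lost on 2L to 23.6% on 3L.

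The 328 new regions were weak. They made up 322 of 1500 ΔM2-HA regions in euchromatin (21.5%, 19.5 to 23.6), 5 of 76 in heterochromatin (6.58%, 2.84 to 14.5) and 1 of 35 on chromosome 4, beside 20.4% over all regions, and their median fold enrichment in euchromatin was 2.17, against 3.33 for shared ΔM2-HA regions. When the ΔM2-HA list was divided in the same way, 0 of 402 regions were new in group 1, 11 of 403 in group 2 (2.73%), 83 of 403 in group 3 (20.6%) and 234 of 403 in group 4 (58.1%). Promoters made up 218 of the 322 (67.7%), and 104 lay outside them, so that 44.8% of the ΔM2-HA regions outside promoters in euchromatin were new (38.6 to 51.3), against 17.2% at promoters (15.2 to 19.4).

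The strongest new regions were an intron of sick with a fold enrichment of 3.71, an intron of stardust (sdt), an apical polarity gene, with 3.52, and the promoters of CG10444 (3.48) and Ccz1 (3.44), the last a gene of endosome to lysosome traffic. No new heterochromatic region was at a promoter. The 5 had fold enrichments between 2.03 and 2.89, and the single new region of chromosome 4, 34802 bp from Cadps, had 2.63. Of the 102 ΔM2-HA regions with their summit in a coding exon, 60 were new (58.8%, 49.1 to 67.9), beside 20.4% over all ΔM2-HA regions. For summits in promoters, in introns and between genes the shares were 14.7, 36.3 and 18.6%. These shares were not split by strength group, on which the share of new regions depended.

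Of the 5 largest rises and 5 largest falls in rank among kept regions, 8 were in euchromatin, and the others were at Stlk in heterochromatin and at Rad23. CG2121 went from rank 1633 in wt-HA to 300 in ΔM2-HA (fold enrichment 1.996 and 5.31), with 3.78 in y1w1118 and 4.19 in Δ42-HA. CenG1A went from 1516 to 470 (2.19 and 4.06), and Eip63E from 1166 to 336 (2.70 and 4.93). These 3 were inside genes, outside promoters, and at each of them the y1w1118 and Δ42-HA values were also above that of wt-HA. In the other direction, raskol went from rank 187 to 1335 (11.4 and 2.24), with 3.35 in y1w1118 and 2.81 in Δ42-HA, and tapas from 266 to 1371 (7.85 and 2.19), with no y1w1118 region. At raskol, wt-HA was the high value among the 4 lists.

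**Figure D4:**
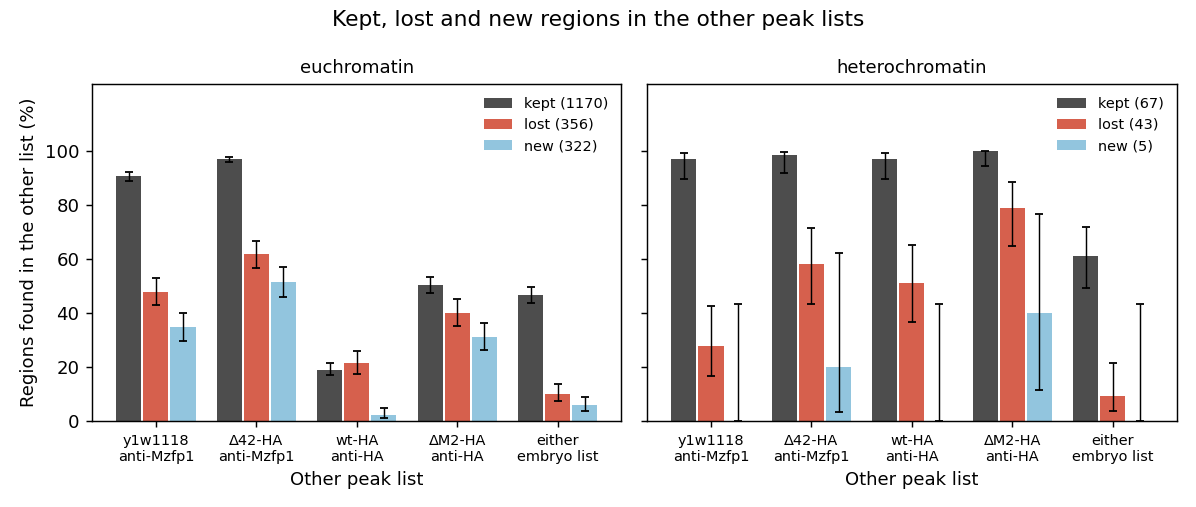
Share of kept, lost and new regions (%, vertical axis) that overlapped a region of each other list (horizontal axis), in euchromatin on the left and heterochromatin on the right, with Wilson 95% intervals and the number of regions in brackets. Kept regions were found in y1w1118 and Δ42-HA in over 90% of cases in both compartments, and the heterochromatic lost regions were found in ΔM2-HA anti-HA in 79.1% and in y1w1118 in 27.9%.

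Lost regions were compared with the other anti-Mzfp1 lists, whose IDR inputs and limit probably differed from those of wt-HA and ΔM2-HA. In euchromatin, y1w1118 held 1061 of 1170 kept (90.7%), 171 of 356 lost (48.0%) and 112 of 322 new regions (34.8%), and Δ42-HA held 97.1, 61.8 and 51.6%. Neither list held 116 lost regions (32.6%) and 151 new ones (46.9%). In heterochromatin the lost regions were found in y1w1118 in 12 of 43 cases (27.9%, 16.7 to 42.7) and in Δ42-HA in 25 (58.1%, 43.3 to 71.6). The wt-HA anti-HA list, with 553 regions on the arms, held 22 of the 43 (51.2%), beside 79.1% of all heterochromatic wt-HA regions and 97.0% of the kept ones. The ΔM2-HA anti-HA list, with 6215 regions, held 34 of the 43 (79.1%), beside 91.8% of all and 67 of the 67 kept. The lengths of the anti-HA lists differ too much for their shares to be compared with each other. From the side of the untagged strain, 79 of its 83 heterochromatic regions were in wt-HA (95.2%) and 66 in ΔM2-HA (79.5%), and 32 and 31 of its 33 chromosome 4 regions.

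In euchromatin, matches to the matrix had the order kept, lost, new. Outside the arms used for training, 359 of 686 kept (52.3%, 48.6 to 56.0), 95 of 226 lost (42.04%, 35.8 to 48.6) and 35 of 170 new regions (20.6%, 15.2 to 27.3) had a match within 100 bp of the summit, beside 6.63, 7.74 and 8.82% of windows 1500 bp away and 18.6% of 14116 windows on annotated transcription starts. The order of kept and lost was the reverse in strength group 4, where 43 of 111 kept (38.7%) and 59 of 119 lost regions (49.6%) matched. The word TATCGATA, searched on both strands and overlapping the matrix, was found in 21.4% of kept, 15.0% of lost and 7.06% of new euchromatic regions and at 5.75% of transcription starts. Among lost regions, those also in y1w1118 matched in 60.2% of cases and the others in 23.9%.

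In heterochromatin 17 of 67 kept regions (25.4%, 16.5 to 36.9) and 3 of 43 lost regions (6.98%, 2.40 to 18.6) had a match, the latter beside 8.14% in flanking windows. None of the 16 lost promoters matched. Another matrix tried on the same data gave 13 of 67 and 6 of 43 (19.4 and 14.0%), so the difference between kept and lost in heterochromatin depended on the matrix. On chromosome 4, 15 of 31 kept regions matched (48.4%) and 4 of 17 lost ones (23.5%), the same share as in the flanks of the lost.

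Other gene groups, from lists chosen by function, are given by counts of genes with a wt-HA region at a promoter, and they share the background of 463 of 2193 genes lost (21.1%). Of the cytoplasmic ribosomal protein genes, 12 of 56 were lost (21.4%), among them RpLP0 (fold enrichment 3.82) and RpL36 (3.14), and none was new. Of the mitochondrial ribosomal protein genes 2 of 19 were lost, and of the oxidative phosphorylation genes 3 of 25, with ND-42, ATPsynE and Cyt-c-p between 2.46 and 2.65. These lost regions were all euchromatic, with fold enrichments of at most 3.82.

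Of the genes of heterochromatin proteins, 5 of 9 were lost (55.6%, 26.7 to 81.1): wde, a cofactor gene of the H3K9 methyltransferase Eggless (fold enrichment 9.56), HP1b (6.70) and HP4 (2.34), genes of an HP1 paralogue and an HP1-binding protein, ADD1 (5.17) and the H3K9 methyltransferase gene G9a (2.43). All of these lie in euchromatin, and 3 of them (wde, HP4 and G9a) had a y1w1118 region. No region was lost at the 7 Polycomb group genes or the 6 genes of architectural proteins with one. New regions were seen at 2 of the 20 listed Polycomb group genes, Psc (1.95) and Su(z)2 (1.86). Of the 19 listed architectural genes, 1 had a new region, Chro (2.76), the gene of the chromodomain protein Chromator. Over all 18277 genes, 253 were counted as new, and the lowest fold enrichment of the ΔM2-HA list was 1.67. The lists were described by these counts alone.

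The smallest overlaps that counted as kept were 140 bp at Rab32, 155 bp at Cpes and 156 bp at CG15141. The smallest gaps that counted as lost were 150 bp at par-6, 179 bp beside RNASEK and 191 bp at CG6051, and among new regions 160 bp at PNUTS, 161 bp at Calr and 186 bp at Bub1. The region beside RNASEK was listed apart from the main one in wt-HA, where the promoter region itself had a fold enrichment of 181.9 and was kept at 178.7 in ΔM2-HA. The other regions with the highest wt-HA values were also kept, with Hr39, a nuclear receptor gene, at 187.4 and 155.7, CG1677 at 167.0 and 142.1, Pc at 153.9 and 110.8 and RpL23A at 133.3 and 107.8. The first 4 of the wt-HA list were the first 4 of ΔM2-HA.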

How the data were processed

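Peak lists deposited by the authors were analysed. Per the study, the authors used cutadapt and sickle to trim reads, aligned them to dm6 with Bowtie2, removed duplicates and non-uniquely mapping reads with Picard (repeats are thus not measured), removed blacklisted regions, called peaks with MACS2 at p 0.01 against preimmune controls and filtered them by irreproducible discovery rate (IDR) at 0.05 for replicates and 0.01 for pseudoreplicates. The deposited columns hold positions, fold enrichment (a ratio), the −log10 p-value and a −log10 IDR score. Region coordinates and −log10 p are those of the first of 2 IDR inputs, and the second input gives its own start and end. The smallest −log10 IDR was 2.00 in both lists, hence probably pseudoreplicates. It was 1.30 in y1w1118 and in Δ42-HA, hence probably replicates. Widths and presence in these 2 lists thus probably rest on other inputs and a looser limit than in wt-HA and ΔM2-HA. Fold changes or p-values of the authors' own comparisons were not used. Regions on unplaced scaffolds were left out.

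Overlaps, Wilson intervals and logistic fits were computed in Python 3.11.15 (pandas 2.3.3, scipy 1.17.1, statsmodels 0.14.6), and the overlap and fit code was tested on simulated data. Covariates were log2 fold enrichment, log2 width and promoter overlap. Genes came from Ensembl release 115 and sequence from RefSeq (Release 6 plus ISO1 MT), whose arm ends equal those of the study's dm6 heterochromatin coordinates. A region was named by the gene whose start is nearest its summit where it overlaps a promoter window, and otherwise by the nearest gene. Named regions were chosen by fixed numbers per class: the 15 strongest lost heterochromatic and the 10 strongest lost euchromatic, kept and new regions, the 10 narrowest and 5 least narrowed kept heterochromatic ones, the 5 largest rank changes either way, all of chromosome 4, list members lost or new and the 3 closest to the overlap rule on each side, from which the text gives examples. Sequences were chosen by class after their values were known, as were the members of gene lists that are named.

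The 15-bp matrix was built from the 300 strongest euchromatic y1w1118 regions of 2 arms, starting from an 8-letter word, with a threshold at the 95th percentile of flanking windows. It was 1 of 4 matrices tried and was kept after the match shares of all 4 in kept, lost and new regions had been seen. The members and lists were chosen with earlier results of these data known.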

Additional observations from a re-analysis of the deposited data

Results flagged for a closer look

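Regions on unplaced scaffolds lay outside the comparison of the arms. The wt-HA list held 15 of them and the ΔM2-HA list 9, and 6 of the 15 were overlapped by a ΔM2-HA region. They drew attention because they were called above the control in DNA that the comparison did not use.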

How the results depend on the processing

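No paired analysis was possible because each group had 1 peak list made from both libraries, and for the same reason no replicate could be left out. With 50% reciprocal overlap the lost share was 37.2% over all regions, 72.7% in heterochromatin (63.75% at promoters), 33.5% in euchromatin and 72.9% on chromosome 4, and 34.3% of ΔM2-HA regions were new. With lists of equal length 23.2% were new, and the odds ratio of loss outside promoters passed the threshold (1.62, p = 0.011, n = 1563), as it did with the summit in a promoter window (1.38, p = 0.030, n = 1636). With only regions also in y1w1118, 13.7% were lost over all regions, 15.6% in heterochromatin, 13.9% in euchromatin and 3.13% on chromosome 4, and the odds ratio outside promoters turned to 0.83 (p = 0.53, n = 1309). With a −log10 p of at least 30, chosen after seeing the data, 36.0% were lost over all regions, 35.1% in euchromatin, 38.3% in heterochromatin and 53.8% on chromosome 4, so that the shares of euchromatin and heterochromatin came close, and 7.75% were new. Against y1w1118 widths the median ratio was 0.834 in heterochromatin, 0.976 on chromosome 4 and 0.989 in euchromatin, where it turned. The cause was not tested, beyond the stricter overlap itself lowering the kept count. The odds ratio of heterochromatin stayed above 1 and past the threshold in every alternative run, between 2.11 without covariates and 72.2 for regions outside promoters in the fit with the interaction term, and that of X between 1.48 and 2.85. All heterochromatin fits but that of 2.11 adjusted for wt-HA fold enrichment, which was higher in heterochromatin. No fit without covariates was run with only regions in y1w1118 or with a −log10 p of at least 30. In both of these the lost shares of heterochromatin and euchromatin were close, so the odds ratio there rests on the covariates. Of 65 alternative values of the main results, 45 kept direction and side of the threshold or stayed within the interval. Of the 4 matrices, 1 from expectation maximisation over 40 regions matched 7.87% of kept and 4.87% of lost euchromatic regions and 31.3 and 20.9% in heterochromatin, and 1 over 100 regions matched 20.0, 17.7, 4.48 and 0%. The lists give no read depth, so a region absent from a list was not detectable at its threshold and is not shown to be unbound.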
